A study of Mus musculus with 4 samples.

Results

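VHL, CUL2, ELOB, ELOC and RBX1 encode the 5 subunits of the cullin-RING ubiquitin ligase that VHL-binding PROTACs recruit, and their accessibility was read from the ATAC-seq peaks of the TRAFTAC dataset. The genes were chosen for their place in this ligase and not for any value in the data, though earlier results of these data were known. The peaks were those of the deposited list that overlapped the 5 kb on either side of the GRCh38 gene starts, namely 10141778 on chromosome 3 for VHL, 35090642 on chromosome 10 for CUL2, 2777297 on chromosome 16 for ELOB, 73972287 on chromosome 8 for ELOC and 40951378 on chromosome 22 for RBX1. This gave 6 peaks of the 48751 in the list, and 16 further peaks lay within 50 kb of the starts.

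The cells were HEK293, a human line from embryonic kidney. All 4 libraries came from cells transfected for 6 h with 1 μg/mL of a plasmid for HA-tagged dCas9 fused to HaloTag7, together with 25 nM of a TRAFTAC, and then kept for 19 h with 5 ng/mL TNF-α. All were given 200 units/mL DNase shortly before harvest, and its effect on the peaks was not tested. The TRAFTAC was directed against NFkB in 2 libraries and scrambled in the other 2. The series' design text gives HP14, the PROTAC that binds the HaloTag, for all 4 samples, while the treatment protocol lists 25 μM HP14 or DMSO. The organism given in the labels is the mouse, but the list has the chromosome names of the human assembly, among them chromosome 22, on which RBX1 lies. The peaks were called on the libraries merged, so that each value below is 1 value for the 4 libraries together. They carry no replicate error, and the TRAFTACs cannot be compared with each other. Each library was made from 50000 cells, and its depth is not given in the list.

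A PROTAC is a molecule with a pair of binding ends, of which one holds the target and the other an E3 ubiquitin ligase, so that the target is ubiquitinated and degraded by the proteasome. HaloPROTACs hold the HaloTag covalently and carry a ligand of VHL. In a TRAFTAC experiment the HaloTag sits on dCas9, which carries a DNA oligonucleotide with the motif of the transcription factor, and the transcription factor is thus brought to the ligase. VHL, the von Hippel-Lindau protein, is the substrate receptor, and its best known natural substrates are the hydroxylated HIF-α subunits. Elongin C (ELOC) binds VHL and CUL2, and Elongin B (ELOB), a ubiquitin-like protein, binds Elongin C. CUL2 is the scaffold, and RBX1, the RING protein, binds the ubiquitin-conjugating enzyme. ELOB, ELOC and RBX1 also serve other complexes, among them other cullin ligases. ATAC-seq measures how accessible DNA is to the Tn5 transposase, and accessible DNA at a gene start is a common feature of promoters in use, but it measures neither the transcript nor the protein.

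All 5 ligase genes had a peak lying across the gene start itself. Peaks covered 1.15% of the bases of chromosomes 1 to 22 and X, and 14.4% of windows of 10001 bp tiled along these chromosomes overlapped a peak. All 5 start peaks had a −log10 q-value of 100 or more, which held for 21.5% of the peaks of the list, and a peak this strong was overlapped by 3.72% of the tiled windows. These backgrounds are over the whole genome. The share among all gene starts was not analysed here, so whether the count is particular to these genes is unknown. The start peaks had a median fold enrichment of 12.5 at the summit against 5.60 over the whole list, and a median width of 1255 bp against 590 bp. The list holds peaks of all strengths, with a median −log10 q-value of 23.3. These medians were not compared with those at other gene starts. Only ELOC had another peak within 5 kb of its start.

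VHL, the substrate receptor to which the PROTAC binds, had a start peak at chr3:10141424-10142899, which was 1476 bp wide. Its fold enrichment over the local background was 11.9, higher than or equal to 86.4% of all peaks, and its −log10 q-value was 169. The summit, the point with the most stacked fragments, lay 74 bp inside the gene. The peak began 354 bp upstream of the start and reached 1121 bp into the gene. It was the widest of the 5 start peaks, and 93.1% of all peaks were as wide or narrower.

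CUL2, the scaffold, had a start peak of almost the same q-value, with a −log10 of 170, at chr10:35089639-35090893. The fold enrichment was 13.7, the highest of the start peaks, and 92.9% of all peaks were at or below it. Its summit lay 62 bp inside the gene, and the peak of 1255 bp ran from 251 bp upstream to 1003 bp downstream of the start. VHL and CUL2 were therefore the start peaks whose summits lay inside the gene. In both of them most of the accessible stretch lay on the transcribed side, as it also did in ELOC and RBX1.

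ELOB, one of the adaptors, had a start peak of 1420 bp at chr16:2776792-2778211. Its −log10 q-value of 168 was close to those of VHL and CUL2, but its fold enrichment of 9.0 was the lowest of the start peaks, with 73.4% of all peaks at or below it. The summit lay 21 bp upstream of the start, the closest of the start peaks. ELOB was the exception in the direction of its peak, which extended 914 bp upstream and 505 bp into the gene, whereas the other 4 start peaks reached further into the gene than upstream of it.

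ELOC, the adaptor that joins VHL to the cullin, had the narrowest start peak, of 899 bp, at chr8:73971741-73972639. It was nevertheless the second strongest, with a −log10 q-value of 399, a fold enrichment of 12.5 and the summit 37 bp upstream of the start. It ran from 352 bp upstream to 546 bp downstream. By q-value it ranked 16 among the 1688 peaks of chromosome 8. The second ELOC peak, at chr8:73976074-73976589, was 516 bp wide and had its summit 3926 bp upstream of the start, with a fold enrichment of 3.30 and a −log10 q-value of 32.1.

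RBX1, the RING subunit that is shared with other cullins, had the strongest start peak, with a −log10 q-value of 543 and a fold enrichment of 13.5. It lay at chr22:40950842-40952063 and was 1222 bp wide, with the summit 77 bp upstream of the start. It extended 536 bp upstream and 685 bp downstream. Of the 1484 peaks of chromosome 22, it ranked 7 by q-value, and in the whole list it ranked 286.

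**Figure D1:**
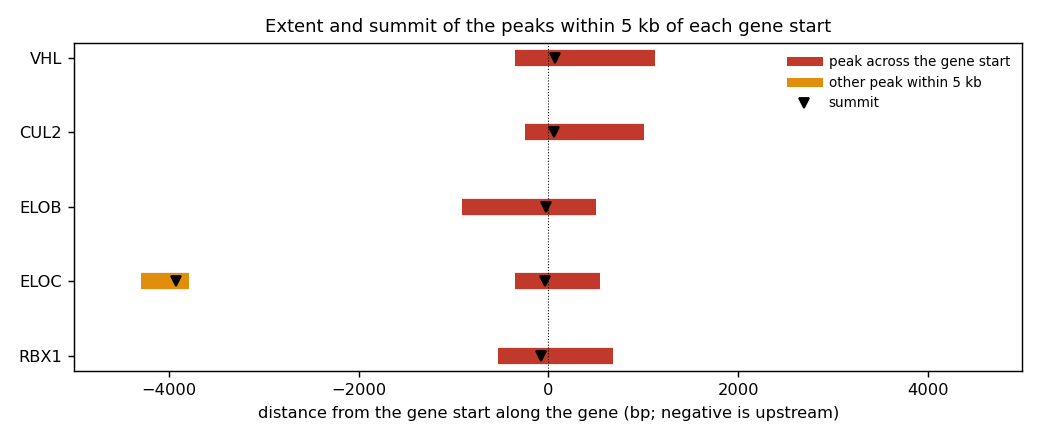
Extent (bars) and summit (triangles) of each deposited peak within 5 kb of the start of the 5 genes, in bp along the gene, with negative values upstream. All 5 red peaks lie across the start with their summits 21 to 77 bp from it, and only ELOC has a second peak (orange), with its summit 3926 bp upstream.

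The fold enrichment is a ratio, and the fragments behind it differed more between the genes than the ratio did. The summit pileup, which is the number of fragments stacked at the summit over the 4 libraries, and the local background to which the authors' peak caller compared it were recovered from the fold and the p-value of each peak, and both were found for all 6 peaks. The pileup was 741 fragments for RBX1 (exact 95% Poisson interval 689 to 796), or 185 per library on average. It was 568 fragments for ELOC (522 to 617), 291 for ELOB (259 to 326), 244 for VHL (214 to 277) and 225 for CUL2 (197 to 256). The median over all peaks was 56 fragments. The intervals cover counting error only.

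In this order RBX1 exceeded ELOC 1.30-fold (exact 95% interval of the ratio 1.17 to 1.46), and ELOC exceeded ELOB 1.95-fold (1.69 to 2.26). ELOB exceeded VHL 1.19-fold, with an interval of 1.00 to 1.42 whose lower end was 1.003. VHL and CUL2 could not be told apart by their counts, at 1.08-fold (0.901 to 1.31). Of the 10 pairs of genes, 9 had an interval that did not include 1, without adjustment for the number of pairs. The share among pairs of other peaks was not analysed, so whether this count is particular to these genes is unknown. The catalytic RING subunit and Elongin C thus had the highest pileups of the ligase, and the receptor and the scaffold the lowest. The pileups were not adjusted for the number of DNA copies of each locus in these cells, and its part in this order was not tested. The order is therefore one of stacked fragments and not of accessibility per DNA copy.

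The local background rose in the same order as the pileup. It was 54.0 fragments for RBX1, 44.6 for ELOC, 31.4 for ELOB, 19.5 for VHL and 15.5 for CUL2, against a median of 8.56 over all peaks and a genome-wide value of 6.32. The pileup therefore spanned a 3.29-fold range over the 5 genes and the fold enrichment a 1.52-fold range. Divided by the local background, the pileup of CUL2 was the highest, and its ratio to that of RBX1 was 1.06 (0.907 to 1.23). With the local backgrounds taken as known, the ratio differed beyond counting error in 4 of the 10 pairs. ELOB was the lower gene in each of them. The share among pairs of other peaks was not analysed for the ratio either. VHL was 1.35-fold above ELOB (1.13 to 1.60) on this scale, although their q-values were alike.

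**Figure D2:**
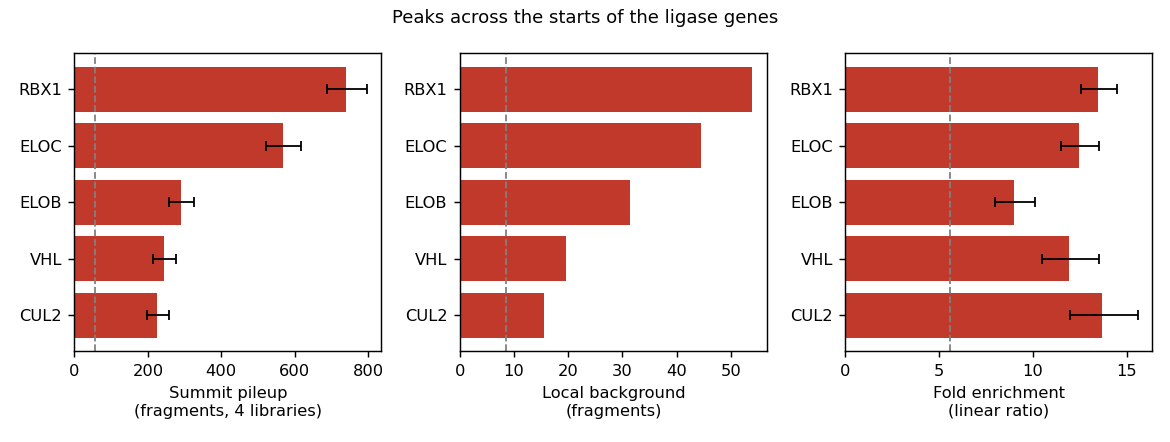
Summit pileup, local background and fold enrichment of the 5 start peaks, as 1 value each for the 4 merged libraries, with the median of all peaks as a dashed line. Error bars are exact 95% Poisson intervals of the pileup (for the fold, with the background taken as known). RBX1 is highest in pileup at 741 fragments, while in fold CUL2, RBX1, ELOC and VHL lie at 11.9 to 13.7 and ELOB at 9.0.

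When the genome-wide background was used for all genes instead of the local one, the fold became 101 for RBX1, 77.8 for ELOC, 39.9 for ELOB, 33.5 for VHL and 30.9 for CUL2. CUL2 moved from the first place to the last, and ELOB from the last to the third. This order is that of the pileups by construction, because the divisor is the same for all genes. An upper bound on the fragments of each start peak takes summit height over its whole width. Averaged over a window of 10 kb, which is assumed here, it was 90.6 fragments for RBX1 and 51.1 for ELOC. It was 41.3 for ELOB, 36.0 for VHL and 28.2 for CUL2. This bound is above the whole local background in each case, so it gives no share of that background. How much of the background came from the peaks themselves was not tested, nor how much of it followed the number of DNA copies of each locus.

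A pair of peaks with the same pileup shows the size of this difference. The peak upstream of ELOC and a peak 23.1 kb downstream of the VHL start both had 149 fragments at the summit. The background was 44.5 fragments in the former and 14.0 in the latter, and the fold enrichment was 3.30 and 10.0. The background of the former was nearly that of the ELOC start peak, at 44.6 fragments. The summits of these ELOC peaks lay 3926 and 37 bp upstream of the start. A window of 10 kb around either would hold both, so with such a window their backgrounds are not separate measurements.

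Peaks of similar significance were used to place the width and the fold of each gene. Among the 1617 peaks with a −log10 q-value within 10% of that of VHL, the median width was 1090 bp and 82.5% were as wide as the VHL peak or narrower. The corresponding share was 67.8% for CUL2 and 79.7% for ELOB. For ELOC it was 13.2% of 658 peaks, whose median width was 1168 bp. RBX1 lay near the middle, with 57.9% of 235 peaks. ELOC was thus narrow for its strength, and VHL and ELOB were wide. By fold, ELOB was low in such a set (13.1% at or below it), CUL2 was high (75.2%), and VHL (48.4%) and RBX1 (48.1%) were near the middle. ELOC had 28.4% at or below it. By local background the order of the genes was reversed at its ends, with 87.2% of the set at or below ELOB and 26.4% at or below CUL2. The shares were 72.6% for ELOC, 54.3% for RBX1 and 52.7% for VHL. Among peaks of like q-value a lower fold goes with a higher background, so the fold is not a separate trait here.

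**Figure D3:**
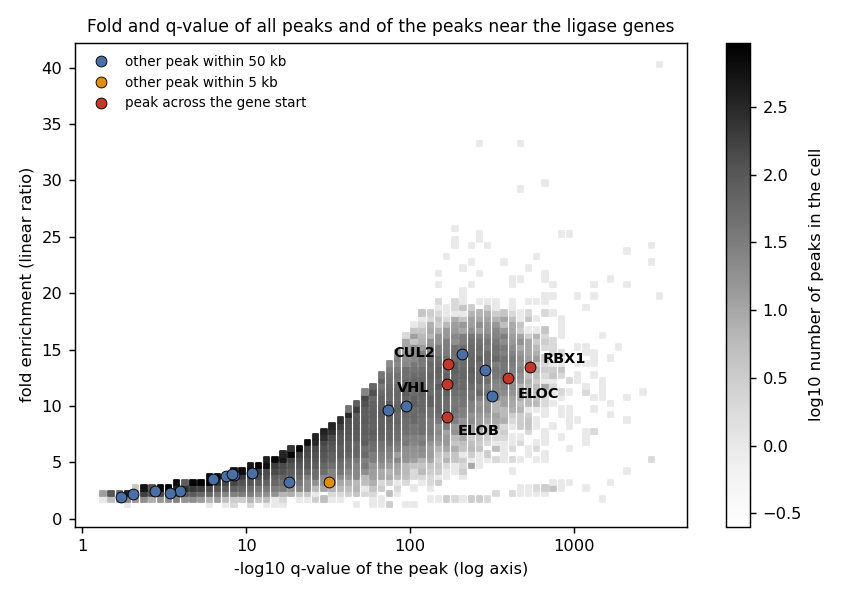
Fold enrichment against the −log10 q-value (log axis) for all 48751 peaks (grey, by the number of peaks per cell) and for the peaks near the 5 genes (coloured). The start peaks (red) lie at −log10 q-values of 168 to 543; VHL, CUL2 and ELOB share nearly 1 q-value but span folds of 9.0 to 13.7.

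Within 50 kb of the starts, the genes lay in differently populated surroundings. ELOB had 8 other peaks, VHL 4, CUL2 2 and ELOC 2, of which 1 was the peak within 5 kb, and RBX1 had 1. Over all peaks of chromosomes 1 to 22 and X, the median number of other peaks within 50 kb of a summit was 3 (quartiles 1 and 6). On chromosome 22, which had 29.2 peaks per Mb, this median was 5, and only 9.77% of its peaks had as few as RBX1 or fewer. On chromosome 16, 84.9% of the peaks had as many as ELOB or fewer. Within 50 kb RBX1 thus had the strongest of the start peaks and the fewest other peaks around it, on the most densely populated of the 5 chromosomes. This order depended on the distance. The RBX1 start peak ended 685 bp into the gene and was followed by a gap of 49.6 kb. The next peak downstream of RBX1 therefore lay just outside the 50 kb limit. Between 5 and 100 kb from the starts RBX1 had 6 peaks, more than VHL (5), CUL2 (3) and ELOC (2), and up to 25 kb RBX1, CUL2 and ELOC all had 0. ELOB had the most peaks at each distance, with 5 up to 25 kb and 19 up to 100 kb.

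Of the 16 peaks between 5 and 50 kb from the starts, 9 had a −log10 q-value under 10 (56.2%, against 29.0% of the whole list), and their median fold enrichment was 3.85. Of these 9, 5 belonged to ELOB. Its 8 neighbours had folds of 1.98 to 10.9, and 3 of them had a −log10 q-value of 5 or more. The nearest 2, both next to ELOB, had their summits within 10 kb of its start.

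Strong neighbours were found at VHL, CUL2 and ELOB. At VHL, a peak of 995 bp at chr3:10115303-10116297, with its summit 26.2 kb upstream, had a fold of 14.6 and a −log10 q-value of 209, both above those of the start peak. Its pileup was 268 fragments. At CUL2, a peak of 1298 bp at chr10:35126434-35127731, 36.3 kb upstream, had a fold of 13.2, slightly below that of the start peak. It had 396 fragments at the summit and a −log10 q-value of 289, both above the start peak. At ELOB, a peak of 1506 bp at chr16:2751845-2753350, 24.7 kb downstream, had a fold of 10.9, a pileup of 488 fragments and a −log10 q-value of 316. The genes at these neighbouring peaks were not identified, because an annotation of the human assembly was not used here.

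At ELOC and RBX1 the start peak was the strongest within 50 kb. Of the pileups summed over all peaks in this stretch, the start peak held 96.7% at RBX1 and 76.2% at ELOC, but 34.7% at CUL2, 30.2% at VHL and 28.1% at ELOB. The single neighbour of RBX1, 28.4 kb upstream, had a fold of 3.55 and 25 fragments. The neighbour of ELOC 37.9 kb downstream had a fold of 3.96 and 28 fragments.

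The stretches without a peak next to the start peaks were 27.7 kb upstream and 49.6 kb downstream at RBX1, 35.5 and 48.2 kb at CUL2, and 25.1 and 21.7 kb at VHL. At ELOC the gap was 3.43 kb upstream and 36.9 kb downstream. ELOB had short gaps on both sides, of 8.09 kb upstream and 6.05 kb downstream, both near the lower quartile of all gaps, 7.26 kb (median 18.7 kb). Peaks covered 6.12% of the 100001 bp around the ELOB start, 3.92% at VHL, 3.10% at CUL2, 1.99% at ELOC and 1.70% at RBX1.

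**Figure D4:**
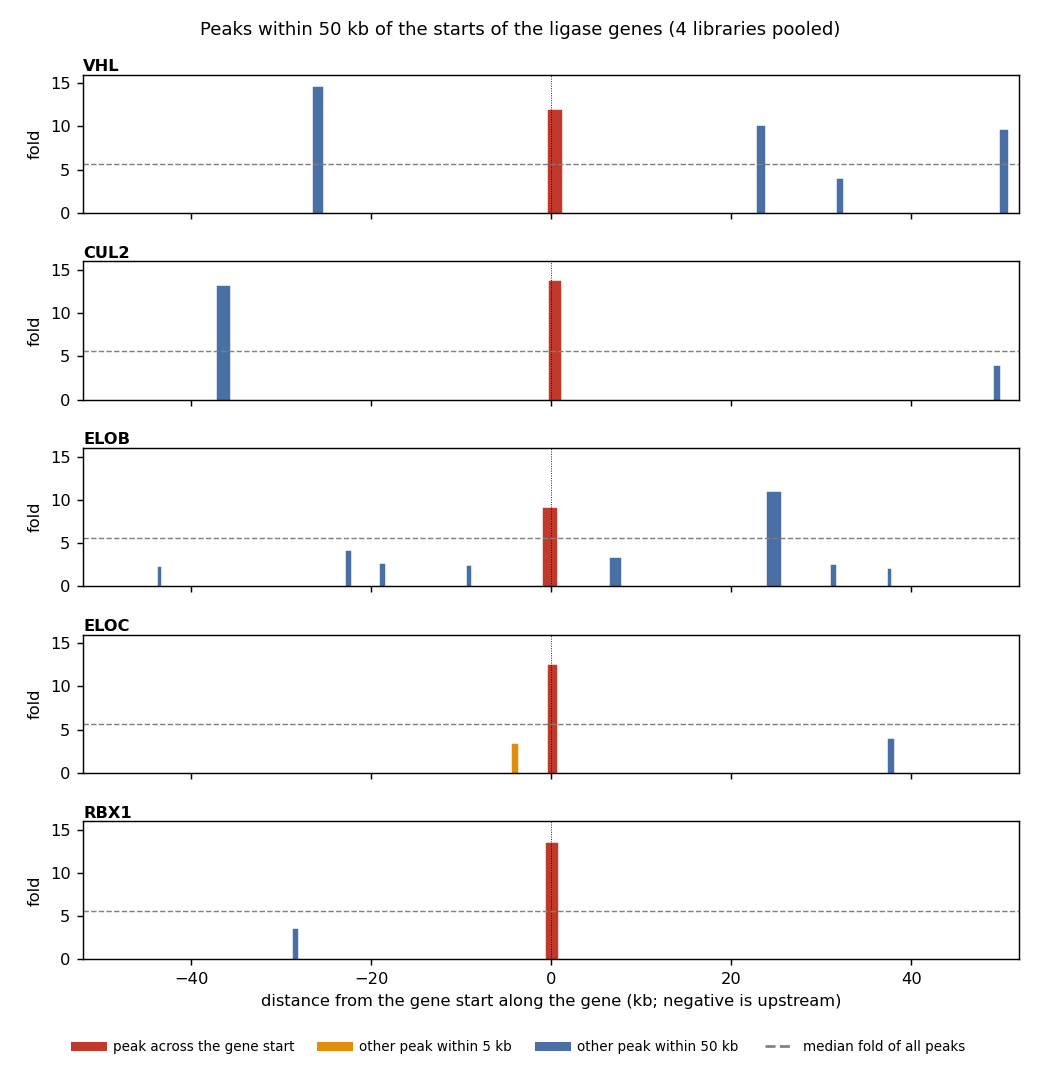
Fold enrichment (bar height) and extent (bar width) of all peaks within 50 kb of each gene start, in kb along the gene, with the median fold of all peaks, 5.60, as a dashed line. VHL, CUL2 and ELOB have a neighbour with a fold of 10.9 to 14.6 at a distance of 24.7 to 36.3 kb, while at ELOC and RBX1 the other peaks have folds of 3.30 to 3.96.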

How the data were processed

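ATAC-seq was performed on 4 libraries, 2 per TRAFTAC. According to the methods and the submitters' processing notes, the authors trimmed reads (Trimmomatic 0.38), aligned them to GRCh38.p10 (Bowtie2 2.3.4.3), marked duplicates (Picard 2.18.27) and called peaks (MACS2 2.2.5, paired-end mode). The deposited columns hold, for each peak, its position and summit, the enrichment there as a linear ratio (fold), the −log10 p-value and q-value, and a score. The list was taken here as a call on all fragments of the merged libraries. The methods describe a merged call only for nucleosome-free fragments, at a q-value threshold below the largest q-value found here (0.0487). Which fragments were counted is therefore an assumption that bears on pileups and folds. The authors pooled the libraries, and 0 columns hold single samples, so no test was run.

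Gene starts were those named with the genes, and strands are general knowledge. Coordinates are 1-based. A peak counted with 1 bp or more in the window. Pileups were recovered with a pseudocount of 1 and a Poisson distribution (misfit at most 0.001), for 99.95% of the peaks, after a check on simulated data. Intervals are exact 95% intervals and cover counting error of the pileups only. Those of the ratio to the local background take that background as known. Percentiles give the percent of peaks at or below a value. Python 3.11.15, numpy 2.4.6, pandas 2.3.3, scipy 1.17.1 and matplotlib 3.10.9 were used. The genes and comparisons were chosen with earlier results of these data known. The rule named all 5 genes whatever their values, and the strongest neighbouring peak by fold. The related genes and promoter motifs that had been planned were not analysed here, because the reference used is of the mouse. The peak pair of equal pileup was chosen after its values were seen.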

Additional observations from a re-analysis of the deposited data

How the results depend on the processing

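All 5 genes kept a peak near the start under each of 7 alternatives. These used 1 kb or 10 kb on either side, or a −log10 q-value of 5 or 100 or more. Others asked for the summit or most of the peak inside the window, or the start itself inside a peak. The alternatives could not lower this count, because each start peak covers the start. Their summits lie at most 77 bp from it and their −log10 q-values are 168 or more. The number of peaks stayed within 1.5 times 6, from 5 to 8. The 16 neighbouring peaks within 50 kb became 6 within 25 kb and 35 within 100 kb, and 11 when the −log10 q-value was 5 or more; the distances themselves give fewer or more. RBX1 was among the genes with the fewest neighbours within 25 and 50 kb but not within 100 kb, with 6. The fold over the genome-wide background ranks peaks as their pileups do. It was chosen after the data were seen, as was the start itself inside a peak. By this fold the CUL2 start peak ranked 2 within 50 kb instead of 1, and the ranks of the other 4 did not move. Percentiles of the start peaks by fold, width and q-value ranged from 71.4% to 99.6% within their own chromosomes and from 67.4% to 99.3% when only peaks of −log10 q-value 5 or more were counted. A pseudocount of 0 gave no pileup for the start peaks, and fitted 0.825% of all peaks. No replicate could be left out. No paired analysis was possible because values of single libraries are not part of the pooled peak calls.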
